A study of Mus musculus with 42 samples.

Results

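The transcripts of 5 adipokines, Adipoq, Lep, Retn, Cfd and Rbp4, were followed through 42 libraries that are all labelled as mouse liver. These 5 genes were taken by name from a table of 54532 genes, and all 5 passed the filter on low counts that left 13394 genes for testing. The libraries of interest were the 10 in which Alb, the transcript of serum albumin and the most typical product of hepatocytes, lay under 100 CPM, counts scaled to a common library total. On AIN93G they were all 3 libraries of ZT 16, all 3 of ZT 20 and 2 of ZT 24, and on the HFD they were 2 of ZT 24. The other 32 libraries served as the liver background.

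Female C57BL/6NHsd mice, labelled C57BL/6, had free access to the AIN93G standard diet, or to a high-fat diet (HFD) made from it with more soybean oil, for 3 weeks from weaning and were 6 weeks old at collection. Livers were taken from unfasted mice every 4 h from Zeitgeber time (ZT) 0, when the light came on, to ZT 24, and the dark phase began at ZT 12. The paper gives a collection period longer than this span, and the time labels do not give the day of a library. Of the 5 mice killed per diet and time point, 3 RNA extractions went into poly(A) sequencing, which gave 14 groups of 3 libraries. All groups shared strain and sex, and no genetic alteration is labelled.

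Adipokines are proteins that fat cells release into the blood. Adiponectin (Adipoq) acts on liver and muscle and favours the use of fatty acids, and leptin (Lep) reports the size of the fat stores to the brain. Resistin (Retn) is made by fat cells in mice and opposes insulin action, adipsin (Cfd) is complement factor D, the protease that starts the alternative complement pathway, and retinol-binding protein 4 (Rbp4) carries vitamin A in plasma. The first 4 are fat cell products that healthy hepatocytes hardly make, whereas Rbp4 comes chiefly from hepatocytes and in a smaller amount from fat.

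By markers other than Alb, the label of the tissue did not hold for the 10 libraries. The level of Alb, by which they were chosen, lay between 11.7 and 66.9 CPM in them and at 73668 CPM or more in the other 32. A list of 19 other hepatocyte transcripts summed to between 407 and 932 CPM in the 10 and to between 63596 and 94126 CPM in the 32, and Hnf4a, a defining hepatocyte factor, was at most 0.264 CPM in the 10. Cyp2e1, which fat also expresses, made up most of what was left of that list, at 334 to 843 CPM. A list of 20 fat cell transcripts summed to between 21687 and 46556 CPM in the 10, against 5450 to 11872 CPM in the 32. Of these, Fabp4 lay between 4032 and 7891 CPM in the 10 and at 36.5 CPM or less in the 32. The lipid droplet protein Plin1 lay between 651 and 1565 CPM against at most 4.72 CPM. Some others of the list overlapped between the sets. Medians in the 10 and the 32 were 1372 and 3283 CPM for Pck1, and 1305 and 1208 CPM for Acsl1. Total counts per library ranged from 14592481 to 21368409, and CPM values were scaled by total count and by TMM factors, which correct for differences in composition. In bulk RNA, fewer cells of a type and less RNA per cell cannot be told apart.

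The start regions of 3 of the genes are shown, because they belong to the fat-restricted Adipoq and Lep and to Rbp4, which was read in both kinds of library. Each is the run of 250 bases that ends before the RefSeq transcription start, on build GRCm38.p6, 5′ to 3′ on the strand of the gene, with matches to the motifs named below in capitals.
Adipoq, chr16:23146286-23146535, plus strand: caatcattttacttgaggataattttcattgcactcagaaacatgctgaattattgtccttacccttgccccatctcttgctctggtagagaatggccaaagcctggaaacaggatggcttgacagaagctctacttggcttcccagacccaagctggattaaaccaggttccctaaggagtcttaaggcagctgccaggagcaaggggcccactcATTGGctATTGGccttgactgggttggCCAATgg
Lep, chr6:29059971-29060220, plus strand: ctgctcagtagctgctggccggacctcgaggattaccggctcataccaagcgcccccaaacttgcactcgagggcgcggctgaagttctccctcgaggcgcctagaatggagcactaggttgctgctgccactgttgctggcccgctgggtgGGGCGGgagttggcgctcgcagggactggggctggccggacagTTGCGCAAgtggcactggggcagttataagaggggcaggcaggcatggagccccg
Rbp4, the downstream of 2 starts, chr19:38124812-38125061, minus strand: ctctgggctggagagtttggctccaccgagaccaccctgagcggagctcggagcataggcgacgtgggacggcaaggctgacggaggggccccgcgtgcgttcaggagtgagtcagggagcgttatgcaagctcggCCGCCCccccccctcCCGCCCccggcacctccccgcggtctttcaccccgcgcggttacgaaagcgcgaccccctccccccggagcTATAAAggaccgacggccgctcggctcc
Both strands of these windows were searched for 6 motifs, and the share of all 32851 RefSeq windows of that length that hold each is given. The box CCAAT, held by 33.8%, was found 3 times in the Adipoq region, with no overlap among its matches. The palindrome TTGCGCAA that C/EBP factors bind, held by 0.164%, was found once in the Lep region, beginning 55 bases before the start. The GC box, read as GGGCGG and held by 32.7%, was found once in the Lep region and 2 times in the Rbp4 region. Also in the Rbp4 region, the motif TATAAA, held by 12.4%, began 28 bases before the start. Neither the E-box, read as CACGTG and held by 6.02%, nor the nuclear receptor motif, read as AGGTCA and held by 14%, was in any of the 3. The regions of Retn and Cfd held no match to any of the 6 motifs. These matches describe letters only.

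Adipoq (ENSMUSG00000022878, chr16:23146536-23158028, plus strand, mm10) was abundant and the steadiest of the 5 in the 10 libraries. Its level was 878, 1965 and 1443 CPM in the AIN93G libraries of ZT 16 and 1993, 1509 and 1521 CPM in those of ZT 20. At ZT 24 it was 1369 and 1901 CPM on AIN93G and 1330 and 1519 CPM on the HFD. The lowest and the highest library differed 2.27-fold. In the 32 other libraries Adipoq had a median of 0.0735 CPM, was at 0 in 12 of them, and had 83 counts at most.

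Lep (ENSMUSG00000059201, chr6:29060220-29073877, plus strand) varied far more than Adipoq. It lay at 652, 1293 and 268 CPM in the AIN93G libraries of ZT 16 and at 1437, 1459 and 665 CPM in those of ZT 20. At ZT 24 it lay at 1070 and 425 CPM on AIN93G and at 377 and 187 CPM on the HFD. The 7.79-fold range had its top at AIN93G ZT 20 and its bottom at HFD ZT 24, and the AIN93G libraries overlapped one another across times. Outside the 10 libraries Lep never exceeded 3 counts and was at 0 in 22 of 32.

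Retn (ENSMUSG00000012705, chr8:3655770-3660110, plus strand) was 457, 467 and 634 CPM in the AIN93G libraries of ZT 16 and 976, 601 and 536 CPM in those of ZT 20. At ZT 24 it was 353 and 940 CPM on AIN93G and 217 and 790 CPM on the HFD, so that within each diet 1 library was well above the other. The range was 4.50-fold, and the gene was at 0 in 23 of the 32 other libraries. Its paralogue Retnla, a product of macrophages and fat, had a median of 121 CPM in the 10 and lay at 0.840 CPM or less in the 32. Retnlb and Retnlg reached no more than 0.114 and 0.211 CPM in the 10 libraries.

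Cfd (ENSMUSG00000061780, chr10:79890853-79892655, plus strand) had the highest median of the 5 in the 10 libraries. It lay at 1923, 2111 and 3696 CPM in the AIN93G libraries of ZT 16 and at 2294, 3298 and 2637 CPM in those of ZT 20. At ZT 24 it lay at 1299 and 3280 CPM on AIN93G and at 2706 and 6472 CPM on the HFD. The HFD library at 6472 CPM stood apart from the other 9, which ended at 3696 CPM. In the 32 other libraries the median was 0.200 CPM and 10 libraries were at 0.

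Rbp4 (ENSMUSG00000024990, chr19:38116620-38125321, minus strand) was the one adipokine that the liver libraries held in larger amounts. In the 10 libraries it was 189, 182 and 202 CPM at AIN93G ZT 16, and 476, 172 and 186 CPM at AIN93G ZT 20. At ZT 24 it was 123 and 394 CPM on AIN93G and 44.6 and 155 CPM on the HFD. In the 32 others it ranged from 2177 to 4966 CPM with a median of 3224 CPM, and the 2 sets did not overlap.

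**Figure D1:**
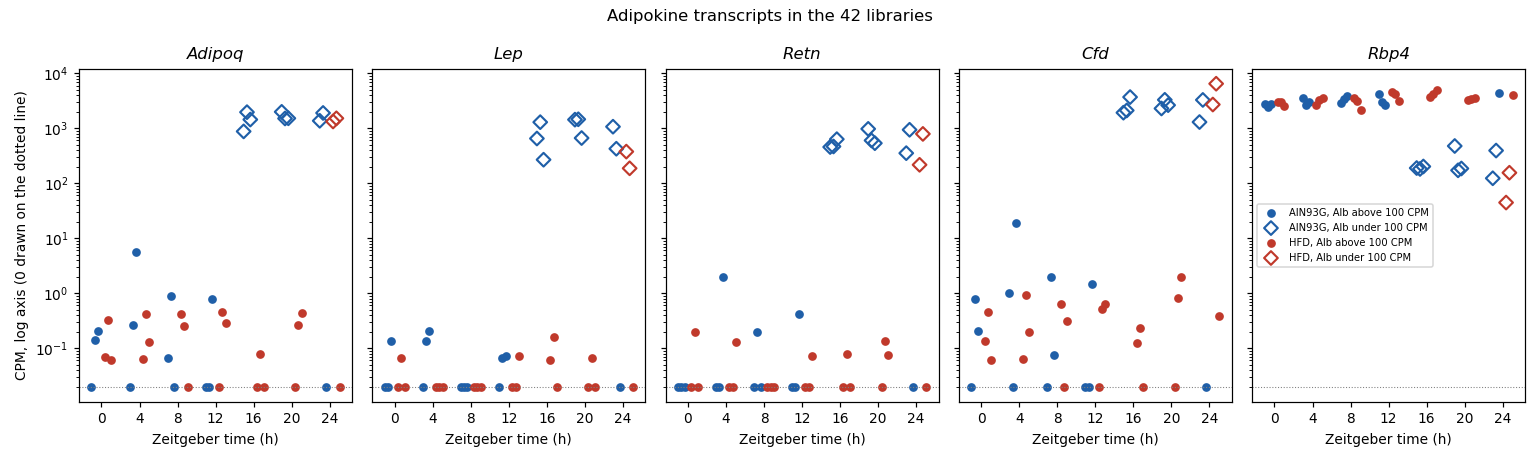
CPM of the 5 transcripts (log axis) against Zeitgeber time in the 42 libraries, with filled circles for libraries with Alb above 100 CPM and open diamonds for the 10 under it, in blue for AIN93G and red for the HFD. Adipoq, Lep, Retn and Cfd are at 187 CPM or more in all diamonds, whereas Rbp4 is at 476 CPM or less in the diamonds and at 2177 CPM or more in the circles.

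**Figure D2:**
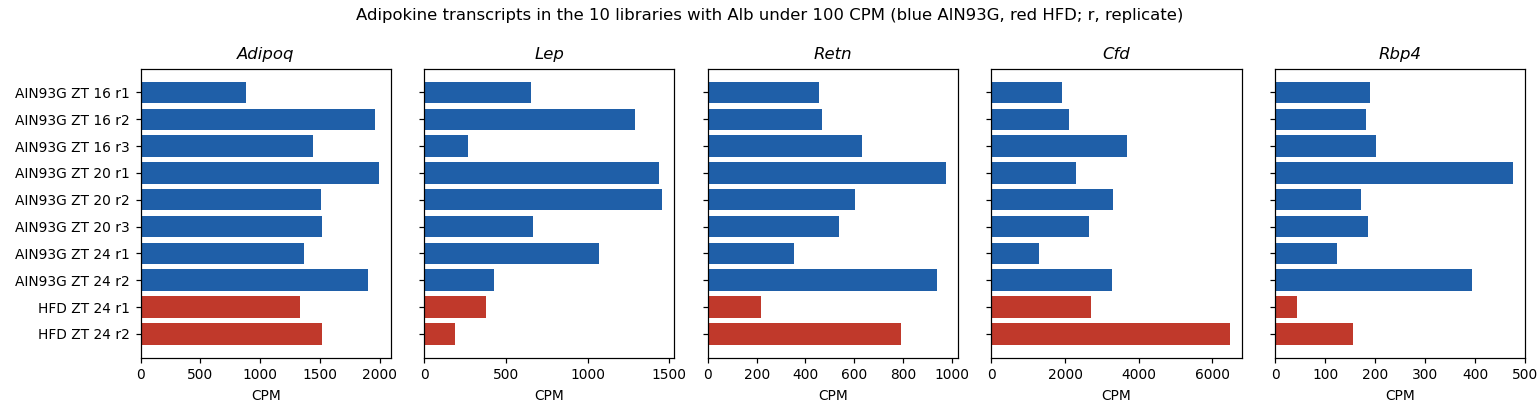
CPM of the 5 transcripts in each of the 10 libraries with Alb under 100 CPM, 1 bar per library, blue for AIN93G and red for the HFD. Adipoq differs 2.27-fold between the lowest and the highest bar, and Rbp4 differs 10.7-fold.

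To compare the genes with one another, CPM was divided by the gene length of the table in kilobases. The median over the 10 libraries was 2897 CPM per kb for Cfd, 1096 for Adipoq, 360 for Retn, 196 for Lep and 142 for Rbp4. Cfd was above Adipoq in all 10 libraries, and Adipoq was above Retn, Lep and Rbp4 in all 10. Lep, whose transcript is the longest, was above Retn in 3 of 10 libraries and above Rbp4 in 7 of 10, so these neighbours had no fixed order. Retn was above Rbp4 in 10 of 10. Together the 5 transcripts held 0.510% to 1.38% of the counts in the 10 libraries.

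The diets were compared at ZT 16, where all 3 AIN93G libraries were low in Alb and all 3 HFD libraries were not, so that diet and kind of library cannot be told apart. The split by Alb had thus fixed this comparison, and Adipoq, Lep, Retn and Cfd reached the filter on low counts through the low-Alb libraries, so the values are a description and no p is given for a member. By edgeR all 5 members were called, 4 of them lower and 1 higher on the HFD, as were 55.4% of all tested genes, 27.8% lower and 27.7% higher. Adipoq averaged 1428 ± 543 CPM (SD, n = 3) on AIN93G and had 1 count in all on the HFD, a ratio of 65963 with a 95% exact Poisson interval of 11839 to 2605380 that covers counting error only. That count lay in HFD replicate 2. Lep averaged 738 ± 518 CPM on AIN93G (SD, n = 3) against 3 counts in all, Retn 519 ± 99.4 CPM against 1 count, and Cfd 2577 ± 974 CPM against 5 counts. The fitted log2 differences, which at so few counts depend on the prior count, were -15.63 for Adipoq, -13.31 for Lep, -14.19 for Retn and -14.44 for Cfd, and without HFD replicate 2 they were -17.94, -14.32, -16.49 and -15.26. With another library left out, the smallest differences were -15.08, -12.66, -13.64 and -13.80, without AIN93G replicate 2 for Lep and without HFD replicate 3 for the others. Rbp4 went the other way. It averaged 191 ± 9.99 CPM on AIN93G against 4266 ± 655 CPM with the HFD (SD, n = 3), and its log2 fold change was 4.48 (SE 0.30), or 3.63 when scaled by library size alone.

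At ZT 20, with the same split of libraries, which makes these values a description too, all 5 members were again called, 4 lower and 1 higher on the HFD, as were 58.7% of all tested genes, 30.3% lower and 28.4% higher. Adipoq averaged 1674 ± 276 CPM on AIN93G and had 10 counts in all on the HFD (ratio 7227, exact Poisson interval 3930 to 15071). Lep averaged 1187 ± 452 CPM against 1 count, and Retn 704 ± 238 CPM against 3 counts. Cfd averaged 2743 ± 510 CPM against 39 counts, a ratio of 3036 (interval 2221 to 4270, for counting error only), and those counts were 0, 12 and 27 in the 3 libraries. The fitted log2 differences were -12.78 for Adipoq and -11.55 for Cfd, or -13.55 and -12.73 without HFD replicate 3. For Lep and Retn they were -15.30 and -13.19, or -17.60 and -14.06 without HFD replicate 2. Without HFD replicate 1 they were -12.20 for Adipoq, -10.96 for Cfd, -14.83 for Lep and -12.64 for Retn. Rbp4 averaged 278 ± 172 CPM on AIN93G against 3396 ± 163 CPM with the HFD, and its log2 fold change was 3.61 (SE 0.44). It was 4.24 without AIN93G replicate 1 and 2.99 when scaled by library size alone. The HFD groups did not overlap the AIN93G groups for any member at either time, which held for 65.1% of tested genes at ZT 16 and 66.5% at ZT 20. In the same comparisons, all 19 hepatocyte transcripts other than Alb were higher on the HFD at both times, and of 20 adipocyte transcripts 16 were lower and 0 higher at ZT 16, and 17 were lower and 1 higher at ZT 20.

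Whether the adipokines differed between times within fat-rich libraries was addressed with the AIN93G groups of ZT 16 and ZT 20, both of which lay wholly among the 10. None of the 5 passed the edgeR test, by which 0% of all tested genes differed and 9.82% had an unadjusted p under 0.05. None of the 5 had an unadjusted p under 0.05 or passed with DESeq2, which called 1.22% of the genes it tested. The log2 difference of ZT 20 minus ZT 16 was 0.20 (SE 0.33) for Adipoq, 0.66 (SE 0.58) for Lep and 0.40 (SE 0.29) for Retn. It was 0.05 (SE 0.34) for Cfd and 0.50 (SE 0.40) for Rbp4, and the 5 edgeR adjusted p-values lay between 0.643 and 0.972. For Rbp4 the difference came from 1 library of ZT 20 at 476 CPM, without which it was -0.12. The ratio of Lep to Adipoq counts, which needs no scaling between libraries, averaged -1.15 ± 1.11 at ZT 16 and -0.57 ± 0.58 at ZT 20 on the log2 scale (SD, n = 3 each), with a two-sided exact permutation p of 0.6 where 0.1 is the smallest possible. Without the ZT 16 library of lowest Lep, that difference of 0.58 became -0.05.

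In the HFD liver libraries, the same pair of times gave no call for Rbp4, against 0.105% of all genes, and 7.17% of genes had an unadjusted p under 0.05. Cfd had 5 counts in all at ZT 16 and 39 at ZT 20, and no p is given since it reached the filter through the low-Alb libraries. Rbp4 was 4266 ± 655 CPM at ZT 16 and 3396 ± 163 CPM at ZT 20 (log2 difference -0.32, SE 0.17, edgeR adjusted p = 0.739).

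At ZT 24 each diet had 2 low-Alb libraries and 1 liver library, and the whole groups gave 0 members called, against 0% of all genes by edgeR and 0.44% at an unadjusted p under 0.05. The liver library of each diet had 0 counts of Adipoq, Lep and Retn, and Rbp4 stood at 4332 CPM on AIN93G and 4055 CPM on the HFD. Restricting the fit to the 2 low-Alb libraries of each diet gave the only comparison of diets within fat-rich material. Lep averaged 747 CPM on AIN93G and 282 CPM on the HFD, and its 2 HFD values of 377 and 187 CPM lay below both AIN93G values, where 40.3% of all tested genes had groups of 2 that did not overlap. The log2 difference was -1.36 (SE 0.60, edgeR adjusted p = 0.668). Cfd averaged 2290 CPM on AIN93G and 4589 CPM on the HFD (log2 difference 1.02, SE 0.67, adjusted p = 0.706), and for Rbp4 the log2 difference was -1.36 (SE 0.85, adjusted p = 0.703). Adipoq differed by -0.17 (SE 0.40) and Retn by -0.35 (SE 0.79), and within each diet the values of Retn spread wider than that. With 1 library left out, the difference of Lep ran from -1.97, without HFD replicate 1, to -0.58, without AIN93G replicate 1. That of Cfd ran from 0.26, without HFD replicate 2, to 1.87, without AIN93G replicate 2, and that of Rbp4 from -2.52 to -0.25 without the same libraries. Adipoq and Retn changed direction without AIN93G replicate 2, to 0.12 and 0.56, and Retn also without HFD replicate 1, to 0.29. This fit called 0% of all genes, with 6.5% at an unadjusted p under 0.05, and DESeq2 called 0.88%, no member among them.

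**Figure D3:**
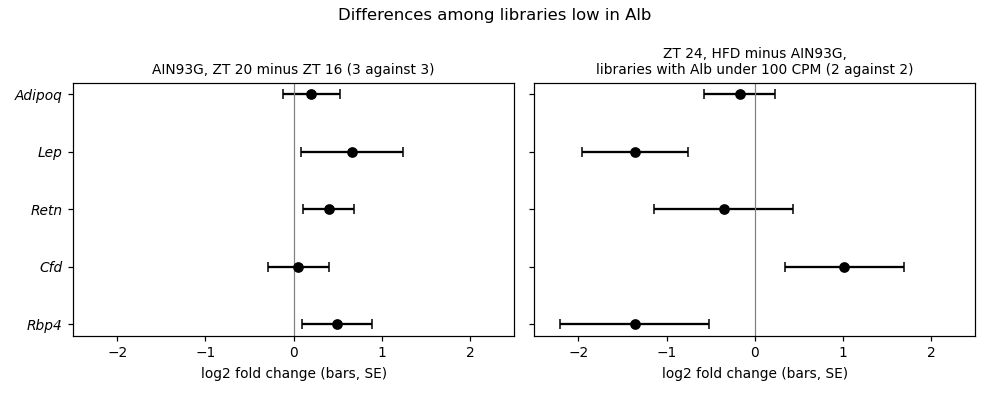
Log2 fold changes of the 5 transcripts (points) with their SE (bars), at left for ZT 20 minus ZT 16 on AIN93G (3 against 3 libraries) and at right for HFD minus AIN93G among the low-Alb libraries of ZT 24 (2 against 2). At left the points lie between 0.05 and 0.66, and at right Lep and Rbp4 lie at -1.36 and Cfd at 1.02, none of them past the test.

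In the 4 earlier time points, where all libraries were liver by their markers, Adipoq, Lep, Retn and Cfd had too few counts for a test of the diets to be read, having reached the filter through the low-Alb libraries. Rbp4 was not called, with a background of 0.0672% of genes at ZT 0, 0.00747% at ZT 4 and 0% at ZT 8 and ZT 12. It had no unadjusted p under 0.05 by edgeR there and no call by DESeq2, while 7.44%, 3.37%, 6.71% and 4.21% of all genes had such an unadjusted p. Rbp4 was the abundant member at these times, when Cfd reached 19.1 CPM in AIN93G ZT 4 replicate 3. Rbp4 had log2 differences of HFD minus AIN93G of 0.12 (SE 0.14) at ZT 0, 0.02 (SE 0.18) at ZT 4, -0.23 (SE 0.21) at ZT 8 and 0.29 (SE 0.24) at ZT 12. Over the 10 groups made up of liver libraries alone, its mean ran from 2647 ± 168 CPM at AIN93G ZT 0 to 4266 ± 655 CPM at HFD ZT 16 (SD, n = 3 each). All 9 pairs of neighbours in that order overlapped in their values, but groups farther apart did not always overlap. Values were 2456 to 2773 CPM at AIN93G ZT 0, 3219 to 3540 CPM at HFD ZT 20 and 3668 to 4966 CPM at HFD ZT 16.

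Of the 10 pairs among the 5 adipokines, 8 had a positive and 2 a negative Pearson's r over the 10 libraries, and 1 passed after adjustment by r and 0 by Spearman's rho. Retn and Rbp4 were the closest pair, with Pearson's r of log2 CPM at 0.903 (permutation p = 0.00056, adjusted over 15 relations 0.0084) and Spearman's rho of 0.709 (permutation p = 0.0259, adjusted 0.172). Without the 2 libraries farthest in Retn, r was 0.707. Lep and Cfd ran in opposite directions with r of -0.687 (permutation p = 0.0245, adjusted 0.184) and rho of -0.503 (permutation p = 0.145, adjusted 0.272), and r was -0.284 without the 2 libraries farthest in Lep, so that this relation rests on them. Adipoq and Retn had r of 0.50 (permutation p = 0.141, adjusted 0.339) and rho of 0.697 (permutation p = 0.0302, adjusted 0.172), and r was 0.537 without the 2 libraries farthest in Adipoq. Retn and Cfd had r of 0.458 (permutation p = 0.181, adjusted 0.339) and rho of 0.515 (permutation p = 0.133, adjusted 0.272), and r was 0.845 without the 2 farthest in Retn. Adipoq and Rbp4 had r of 0.457 (permutation p = 0.165, adjusted 0.339) and rho of 0.503 (permutation p = 0.143, adjusted 0.272), and r was 0.690 without the 2 farthest in Adipoq. Adipoq and Lep had r of 0.223 (permutation p = 0.552) and rho of 0.358 (permutation p = 0.314), and r was 0.220 without the 2 libraries farthest in Adipoq. The points share the choice by Alb and the scaling to library totals, and no group holds more than 3 of them, too few for a value within groups.

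Expressed per count of Adipoq, which removes the scaling between libraries, Lep ran from 0.123 to 0.967, Cfd from 0.948 to 4.26, Retn from 0.163 to 0.520 and Rbp4 from 0.0335 to 0.239. The library with the least Lep per Adipoq, HFD ZT 24 replicate 2, was also the one with the most Cfd per Adipoq.

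Markers of other cells differed among the same libraries, and their part in these differences was not tested. A list of 8 brown fat transcripts, led by Ucp1 and Cidea, summed to between 90.3 and 1010 CPM, with both HFD libraries at the top at 1010 and 1002 CPM and none of the AIN93G libraries above 952 CPM. Zic1, a defining gene of classical brown fat, was at 0 in 8 of 10 libraries. Lep had r of -0.544 (permutation p = 0.105, adjusted 0.315) and rho of -0.612 (permutation p = 0.0668, adjusted 0.2) with that sum, and Adipoq r of -0.592 (permutation p = 0.0663, adjusted 0.249) and rho of -0.648 (permutation p = 0.0486, adjusted 0.182). Without the 2 libraries farthest in the member, these r were -0.413 for Lep and -0.919 for Adipoq. Rbp4 had r of -0.618 (permutation p = 0.0584, adjusted 0.249) and rho of -0.685 (permutation p = 0.0344, adjusted 0.172) with the sum, and r was -0.491 without its 2 farthest libraries. Retn had r of -0.421 (permutation p = 0.227, adjusted 0.378) and rho of -0.455 (permutation p = 0.191, adjusted 0.318), and r was -0.0938 without its 2. Cfd had a positive r of 0.195 (permutation p = 0.586, adjusted 0.676) and rho of 0.224 (permutation p = 0.539, adjusted 0.735), and r was 0.348 without its 2. A list of 6 skeletal muscle transcripts stood at 2967 CPM in AIN93G ZT 16 replicate 2, 8532 CPM in AIN93G ZT 24 replicate 2 and 9657 CPM in HFD ZT 24 replicate 2, and at 223 CPM or less in the other 7. The last of these is the library with the highest Cfd and the lowest Lep. In the other libraries named, in order, Cfd was 2111 and 3280 CPM and Lep was 1293 and 425 CPM. Fibroblast transcripts summed to 7832 CPM in AIN93G ZT 20 replicate 1, the library with the highest Rbp4 and Retn. In the other 9 they summed to between 3225 and 6483 CPM. The sum of 6483 CPM was in HFD ZT 24 replicate 1, the library with the lowest Rbp4 and Retn. Lymphocyte transcripts ranged from 36.6 to 808 CPM, macrophage transcripts from 367 to 1041 CPM and endothelial transcripts from 207 to 338 CPM. Of 12 mammary epithelium transcripts the sum was 149 to 991 CPM, and its most abundant members by median were Krt19 at 122 CPM, Krt8 at 103 CPM, Krt18 at 99.9 CPM and Epcam at 58.3 CPM, against 1.28, 180, 128 and 1.52 CPM in the 32. Medians in the 10 were 49.1 CPM for Trf, 9.47 CPM for the milk gene Csn3, 8.80, 8.78 and 8.34 CPM for Krt5, Krt14 and Elf5, 0.109 CPM for the milk gene Lalba, and 0 for the milk genes Csn2 and Wap. Red cell transcripts summed to 46.9 to 203 CPM.

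**Figure D4:**
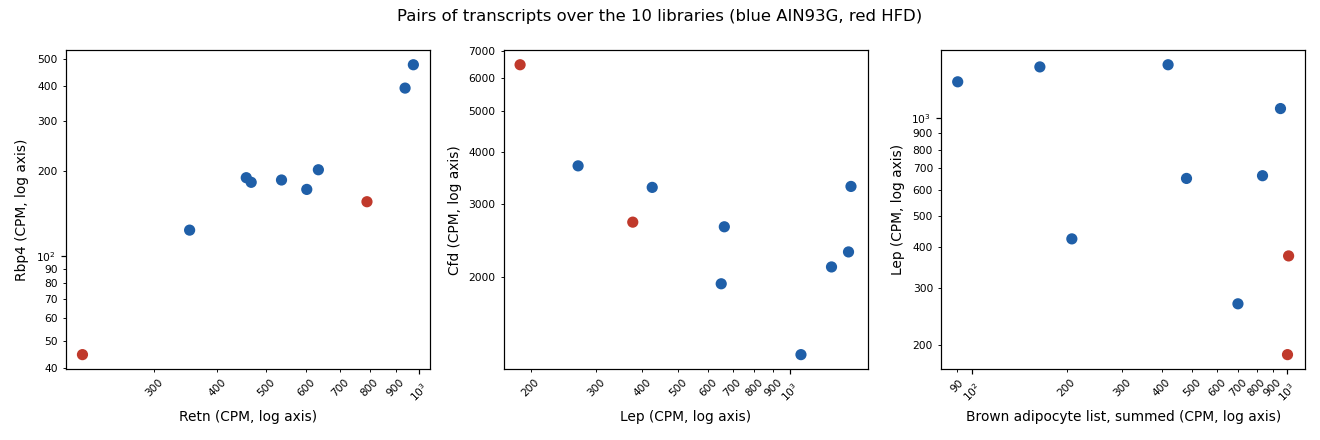
Levels in CPM over the 10 libraries (log axes, 1 point per library, blue for AIN93G and red for the HFD) of Rbp4 against Retn, of Cfd against Lep, and of Lep against the summed brown fat list. Pearson's r of the log2 values is 0.903, -0.687 and -0.544 in this order.

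Genes whose pattern over the 10 libraries was most like that of each member were sought among 13393 others by Pearson's r of log2 CPM. They were Grb10 (0.96), Psd3 (0.95) and Tmem59 (0.94) for Adipoq, and Stim2 (0.96) and Minpp1 (0.94) for Lep. For Retn they were Dct (0.97), Aamdc (0.96) and Selenot (0.96), for Cfd they were Chchd2 (0.92), Ndufa6 (0.91) and Atp5g2 (0.91), and for Rbp4 they were Dnlz (0.97), Dct (0.96) and Nos3 (0.94). Dct was low throughout, between 0.105 and 3.59 CPM. With 10 libraries and so many genes, these are descriptions.

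The partners of the adipokines were read from a list of 64 genes, of which 62 were in the table and 55 were tested. On the HFD, 20 were higher, 21 were lower and 14 were not called at ZT 16, and the counts were the same at ZT 20, beside 27.7% of all tested genes higher and 27.8% lower at ZT 16 and 28.4% and 30.3% at ZT 20. These comparisons follow the split by Alb, so the calls are given as a description. Of these, 18 were higher and 20 lower at both times, and none was called in opposite directions. By edgeR, none of the 55 was called between ZT 20 and ZT 16 on AIN93G, against 0% of all tested genes.

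The adiponectin receptors overlapped between the kinds of library. Adipor1 lay between 74.9 and 132 CPM in the 10 and between 78.5 and 130.0 CPM in the 32, and Adipor2 between 354 and 839 CPM and between 466 and 873 CPM. Neither was called between the diets at ZT 16 or ZT 20. Cdh13, which binds adiponectin at the surface of vessels, lay between 9.99 and 27.1 CPM in the 10 against at most 5.07 CPM, and was lower on the HFD at ZT 16 (log2 difference -2.81) and ZT 20 (-2.49). Of 6 tested genes for the assembly of adiponectin, 4 were higher and 1 lower on the HFD at ZT 16, and 3 were higher and 1 lower at ZT 20, where 27.7% and 28.4% of all tested genes were higher and 27.8% and 30.3% lower in turn. Erp44, which holds unfinished adiponectin back, had medians of 36.2 CPM in the 10 and 109 CPM in the 32, and the folding enzyme P4hb had medians of 250.1 and 1484 CPM. Gstk1 was at least 24.7 CPM in the 10 and at least 89.1 CPM in the 32. Median levels in the same order were, for Ero1l, 20.5 and 26.4 CPM, for Plod1 66.0 and 56.3 CPM and for Plod3 58.4 and 29.9 CPM.

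The leptin receptor Lepr lay between 1.48 and 10.4 CPM in the 10 libraries against 6.04 to 116 CPM in the 32. It was higher on the HFD at ZT 16 (log2 difference 3.12, SE 1.00) and at ZT 20 (2.10, SE 0.55). Leprot, a regulator of its transport, lay between 30.3 and 46.8 CPM in the 10 and between 13.7 and 26.7 CPM in the 32, and Jak2, the kinase of the receptor, had medians of 41.6 and 24.5 CPM. Both were lower on the HFD at ZT 16 and ZT 20. Of all tested genes, 27.7% were higher and 27.8% lower on the HFD at ZT 16, and 28.4% and 30.3% at ZT 20. Of all 6 leptin receptor and signalling genes, 1 was higher and 3 lower at ZT 16, and 3 were higher and 2 lower at ZT 20. The others were Stat3, the factor that the receptor activates, with medians of 95.2 CPM in the 10 and 126 CPM in the 32, and the signalling inhibitors Socs3 (9.52 and 8.46 CPM) and Ptpn1 (47.2 and 33.7 CPM). Stat3 and Socs3 were called higher at ZT 20 and not called at ZT 16, and Ptpn1 was called lower at ZT 16 and not called at ZT 20. Whether their diet differences changed between the times was not tested. The resistin-binding proteins Cap1 and Tlr4 were also lower on the HFD at both times, with medians of 126 and 16.5 CPM in the 10 and of 83.2 and 2.89 CPM in the 32.

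Of the complement partners of adipsin, Masp1, Cfb and C3 had lower medians in the 10 libraries than in the 32, and those of properdin were close. Masp1, whose product activates pro-factor D, had medians of 2.02 CPM in the 10 and 216 CPM in the 32. Cfb, the substrate of adipsin, had medians of 2.16 and 19.0 CPM, and C3 of 817 and 9477 CPM. These 3 were higher with the HFD at both times, whereas properdin (Cfp) had medians of 42.6 and 42.7 CPM and was not called.

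Ttr, the transthyretin that retains retinol-binding protein in plasma, lay between 0.121 and 2.03 CPM in the 10 libraries and between 4345 and 7166 CPM in the 32. Stra6l, a receptor for retinol-binding protein in liver, lay at 1.14 CPM or less against at least 132 CPM, and Lrat, which esterifies retinol in stellate cells, at 0.564 CPM or less against up to 34.5 CPM. Stra6 did not exceed 0.639 CPM in any library. Ttr, Stra6l and Lrat were higher on the HFD at both times by edgeR.

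Of 6 regulators of adipokine transcription, 2 were higher and 2 lower on the HFD at ZT 16, and 1 was higher and 2 lower at ZT 20. All tested genes had shares of 27.7% higher and 27.8% lower at ZT 16, and of 28.4% and 30.3% at ZT 20. Klf15 was higher at both times, with medians of 43.5 CPM in the 10 and 180 CPM in the 32. Cebpa had medians of 533 CPM in the 10 libraries and 513 CPM in the 32 and was not called at either time, while Pparg, the chief regulator of fat cell genes, had medians of 138 and 4.88 CPM and was lower on the HFD at both. Among 16 tested genes for other proteins secreted by adipocytes, 5 were higher and 6 lower on the HFD at ZT 16, and 5 and 7 at ZT 20, against the same all-gene shares of 27.7% and 27.8%, and of 28.4% and 30.3%. The highest of them in the 10 libraries, Apoe, had a median of 1406 CPM there and of 21714 CPM in the 32. Of 6 tested paralogues of adiponectin, 5 were lower on the HFD at both times, beside 27.8% of all tested genes at ZT 16 and 30.3% at ZT 20. The highest paralogue, C1qtnf12, lay between 32.8 and 56.7 CPM in the 10 and at 3.73 CPM or less in the 32.

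**Figure D5:**
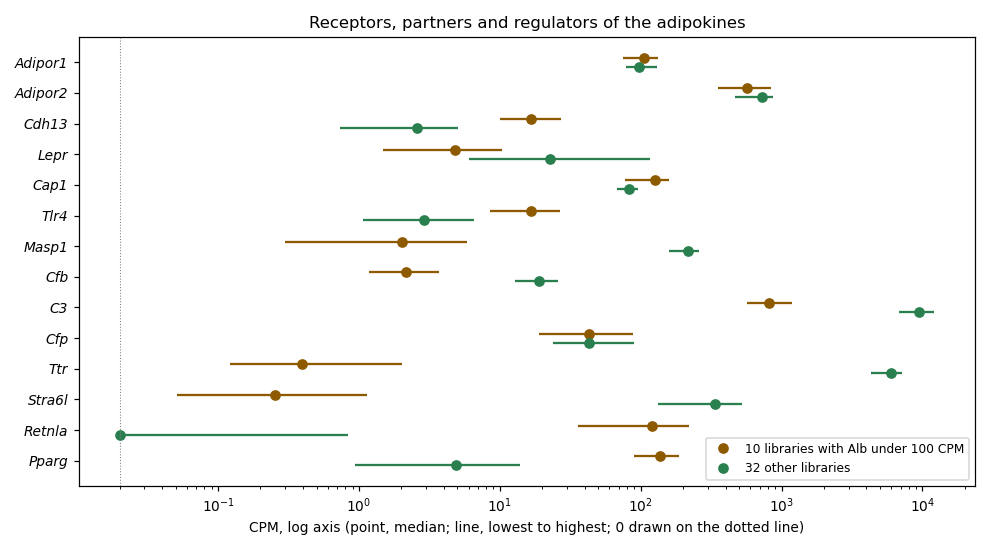
Median (point) and range (line) in CPM, on a log axis, of 14 receptors, partners and regulators of the adipokines in the 10 libraries with Alb under 100 CPM (brown) and in the 32 others (green). Adipor1, Adipor2 and Cfp overlap between the sets, whereas Ttr, C3, Masp1 and Stra6l lie lower in the 10 and Pparg and Retnla lie higher.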

How the data were processed

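Per the labels and the paper, poly(A) RNA of 42 samples labelled as liver was sequenced by a company. The submitters' processing notes name fastp, STAR, HTSeq 0.6.1, DESeq and build mm10, and the strand setting is not given in the sources used here. The deposited values are raw read counts for each gene, in a single table made by the authors. Replicate numbers follow the order of the samples, and the labels do not say that samples of a group come from separate mice, so p-values measure the spread between these samples. All 42 pairs of replicates differed by more than sampling noise (chi-square of 14.5 or more per degree of freedom).

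R 4.3.3 was used with edgeR 4.0.16 and DESeq2 1.42.0. CPM were computed with TMM factors over the 42 libraries. The quasi-likelihood test that edgeR offers compared groups in fits of the 6 libraries concerned, limited to genes that averaged 25 counts or more. P-values were adjusted over all these genes by Benjamini and Hochberg, with 0.05 as the threshold, and come from edgeR where no other tool is given. The pooled 10 and 32 libraries were set side by side without a test, since Alb had chosen them. At ZT 16 and ZT 20 the diet groups coincide with that split, so the edgeR calls there compare the kinds of library as well and are descriptions. Correlations of log2 CPM used 100000 permutations. The test scripts were tested on simulated data. The genes and lists were chosen with earlier results of these data known. Named were the 5 members, Alb, the receptors, partners and assembly genes of the list, the most abundant genes of other lists, and for each member the 3 most alike genes, except some that are not reported here. Serpina12, Hnf4a, Zic1, Cyp2e1, the mammary transcripts, Pparg, Klf15, Stat3, Socs3, Ptpn1, Fabp4, Plin1, Pck1 and Acsl1 were named after their values had been seen. Alternatives were library size scaling, DESeq2, no filter, 1 fit of all libraries and leaving out each library.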

Additional observations from a re-analysis of the deposited data

Results flagged for a closer look

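Over the 10 libraries with Alb under 100 CPM, Cfd in HFD ZT 24 replicate 2 stood at 6471.59 CPM, where the next library stood at 3695.86 CPM. The gap was 0.537 of the range, above Dixon's critical value at the 95% level for 10 libraries. This check took CPM without a log transform, over libraries of different diets and times, and a log scale was not examined. Chance alone flags about 1 in 20 groups, and 5 genes were examined in this way. The same library had 9657 CPM of skeletal muscle transcripts and 1002 CPM of brown fat transcripts, and their part in the value was not tested. AIN93G ZT 24 replicate 2, with 8532 CPM of skeletal muscle transcripts, had 3280 CPM of Cfd. HFD ZT 24 replicate 1, with 1010 CPM of brown fat transcripts, had 2706 CPM of Cfd.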

How the results depend on the processing

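No paired analysis was possible because the labels give no replicate numbers that tie samples of different groups. The number of members called was 5 at ZT 16 and ZT 20 and 0 in the other comparisons under all the alternatives run. The 5 follow from the split by Alb, and the 0 at ZT 0 to ZT 12 cover 4 genes with few counts, so neither number is a sign of stability. The difference in the Lep to Adipoq ratio ranged from -0.0549, without AIN93G ZT 16 replicate 3, to 0.944 with 1 library left out. The alternatives for single members were chosen after seeing the data, except the fold range per count of the adipocyte list. Uncalled differences turned direction as follows, and the cause was not tested. For ZT 20 minus ZT 16 on AIN93G, Cfd was -0.0964 with library size scaling, and -0.116, -0.111 and -0.100 without ZT 16 replicate 1, ZT 16 replicate 2 and ZT 20 replicate 2. Adipoq was -0.0527 without ZT 16 replicate 1, and Rbp4 was -0.120 without ZT 20 replicate 1. With 1 library left out, the highest values were 0.445 for Adipoq, 0.387 for Cfd and 0.745 for Rbp4. Lep ran from 0.240, without ZT 16 replicate 3, to 1.26, without ZT 16 replicate 2, and Retn from 0.106, without ZT 20 replicate 1, to 0.552, without ZT 20 replicate 3. In the low-Alb libraries of ZT 24, Adipoq was 0.123 with library size scaling and 0.116 without AIN93G replicate 2. Retn was 0.563 without AIN93G replicate 2 and 0.292 without HFD replicate 1. The lowest values with 1 library left out were -0.412 for Adipoq and -1.56 for Retn. Where 1 library was left in a group, it was assumed to vary like the other group. The fold range of Cfd over the 10 libraries was 4.98, or 7.33 per count of the adipocyte list, and that of Rbp4 was 10.7 or 7.55. The levels of Adipoq, Lep, Retn and Cfd in liver libraries rest on few counts, which limits their precision.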

Other observations

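Among the 32 liver libraries, AIN93G ZT 4 replicate 3 had the highest counts of 4 of the adipokines. It had 83 counts of Adipoq, 284 of Cfd, 29 of Retn and 3 of Lep, where no other of the 32 exceeded 14, 31, 6 and 2. It also had 401 counts of Ucp1, 88 of Cidea and 70 of Plin1, where no other exceeded 11, 8 and 4. Elovl3, at 149 counts against up to 737 in another, was not highest there. The whole lists were not highest there either, with 6117 CPM for the 20 adipocyte transcripts against up to 11872 CPM, and 64.1 CPM for the 8 brown fat transcripts against up to 88.9 CPM. Lep came to 3.61 per 100 counts of Adipoq (exact binomial interval 0.731 to 10.9), and the lowest of the 10 low-Alb libraries had 12.3.

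Of the 55 partner genes tested, 1 was called between the diets at ZT 0, as were 0.0672% of all tested genes. Serpina12, the serpin vaspin, was 68.1 ± 16.4 CPM on AIN93G and 9.68 ± 2.27 CPM on the HFD (SD, n = 3 each), a log2 difference of -2.81 (SE 0.22, edgeR adjusted p = 0.00559), with all libraries at that time liver by their markers. In the 10 low-Alb libraries Serpina12 did not exceed 0.317 CPM. At ZT 4, ZT 8 and ZT 12 none of the 55 was called, beside 0.00747%, 0% and 0% of all tested genes.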
